A study of Homo sapiens with 5 samples.

Results

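HRAS, NRAS, SOS1, RASGRP1, RALA, RALB, RALGDS, RALGPS1 and RALGPS2 encode RAS and RAL GTPases and the exchange factors that activate them. Their expression was examined in MIAPaCa2 cells, an established human pancreatic ductal adenocarcinoma (PDAC) line that lacks the α2 integrin, after stable re-expression of α2 or of altered forms of it. The 9 genes were chosen with their values on these 5 arrays already known, so every level and difference given here is a description and none was tested. All probe sets that the platform annotation assigned to 1 of these genes alone were taken, which gave 23 of 54613 probe sets for 8 of the 9 genes. NRAS was not analysed here.

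Each of the 5 cell populations was measured on 1 array, and each was a stably transfected population and not a single clone. MP2-mock cells carried empty vector and were kept under drug selection. MP2-α2/TC cells and MP2-α2/CI cells both expressed full-length α2, a collagen-binding integrin subunit, from a cytomegalovirus promoter. They came from the same panning on collagenI and zeocin selection, and differed in maintenance in standard tissue culture (TC) or on collagenI (CI). MP2-α2Δ cells expressed α2 without its cytoplasmic domain, were panned on 25 µg/mL collagenI, selected with zeocin and maintained on collagenI. MP2-α9α2 cells expressed a chimera of the α9 ectodomain and transmembrane domain with the α2 cytoplasmic domain, and were kept with G418 on the tenascin FNIII domain, coated at 10 µg/mL. The paper names hygromycin for mock transfectants in another of its experiments, and does not say whether they are the population on the array. The substrate of MP2-mock cells is not stated. The study asked which genes follow α2 expression, and whether they follow its ectodomain or its cytoplasmic domain. Construct, substrate and drug changed together between MP2-α2Δ cells and MP2-α9α2 cells, and their parts in any difference cannot be told apart.

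RAS and RAL proteins are small GTPases that signal when bound to GTP and are silent when bound to GDP. Guanine nucleotide exchange factors load them with GTP, and GTPase-activating proteins return them to the GDP state. RAS in turn binds RALGDS, which activates RAL, so that RAL lies on 1 of the main branches downstream of RAS, beside the RAF and PI3-kinase branches. RAS signalling is a defining feature of PDAC, and RAL directs the exocyst, a complex that tethers secretory vesicles to the plasma membrane. SOS1 is recruited by receptor complexes, RASGRP1 responds to diacylglycerol and calcium and is best known from lymphocytes, and RALGPS1 and RALGPS2 activate RAL without binding RAS.

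The members whose levels set populations apart most were RASGRP1 and RALGPS2, and their promoters are shown for that reason. The sequences run from 250 bases before to 50 bases after the annotated start, 5′ to 3′ on the strand of the gene, and are from RefSeq (GRCh38.p14). The RASGRP1 promoter lies at chr15:38564765-38565064 on the minus strand and the RALGPS2 promoter at chr1:178724994-178725293 on the plus strand. Capitals mark the GC box GGGCGG, searched on both strands.
RASGRP1: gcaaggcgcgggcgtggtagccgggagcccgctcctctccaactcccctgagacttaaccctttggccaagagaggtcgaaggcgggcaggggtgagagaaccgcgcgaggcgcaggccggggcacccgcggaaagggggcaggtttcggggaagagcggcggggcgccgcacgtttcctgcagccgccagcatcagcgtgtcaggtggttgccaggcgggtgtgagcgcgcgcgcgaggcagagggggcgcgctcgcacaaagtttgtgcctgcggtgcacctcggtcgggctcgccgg
RALGPS2: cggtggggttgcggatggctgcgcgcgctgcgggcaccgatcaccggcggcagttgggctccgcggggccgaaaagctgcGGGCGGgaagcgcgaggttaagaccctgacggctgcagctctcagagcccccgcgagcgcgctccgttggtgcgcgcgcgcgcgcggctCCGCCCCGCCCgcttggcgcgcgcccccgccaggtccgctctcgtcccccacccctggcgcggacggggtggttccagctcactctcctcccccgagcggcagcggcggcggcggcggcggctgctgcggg
The RALGPS2 window held 3 GC boxes, 2 of which overlap, and the RASGRP1 window held 0, while 45.0% of 35116 promoters of this length held at least 1. G and C made up 78.3% of the RALGPS2 window and 71.3% of the RASGRP1 window, against a median of 58.7% over all these promoters. Neither window held an AP-1 site (TGACTCA or TGAGTCA, present in 4.95% of promoters), an ETS core (CCGGAAG, 10.3%), a CRE (TGACGTCA, 1.85%), an E-box (CACGTG, 7.26%) or a TATA box (TATAAA, 11.5%). A match or its absence describes these letters in this window alone.

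Values are log2 expression values, and a difference of 1 is a 2-fold difference. With 1 array per population the error of a difference is unknown. The height above the floor tells whether a signal was detected, and does not measure that error. The floor of an array, 2.25, 2.25 and 2.27 in MP2-mock, then MP2-α2/TC, then MP2-α2/CI cells and 2.21 in MP2-α2Δ and MP2-α9α2 cells, is the level below which 95% of 107 odorant receptor probe sets read, and values below it were set to it for all differences. The first 3 arrays shared a minimum of 2.24 and the other 2 a minimum of 2.21, and these 2 sets were treated as separately normalized. Differences are therefore given within a set, and levels of different sets stand side by side. Over 27320 probe sets that exceeded the floor of every array, the median difference from MP2-mock was 0.53 in MP2-α2Δ cells and 0.54 in MP2-α9α2 cells. Values given without names run in the order MP2-mock, then MP2-α2/TC, then MP2-α2/CI, and in the second set MP2-α2Δ, then MP2-α9α2. Many values were identical between arrays, to within 1e-06, from 29.7% of measured probe sets between MP2-α2Δ and MP2-α9α2 to 52.0% between the 2 populations with full-length α2. The keratins KRT8, KRT18 and KRT19 and vimentin read at least 11.74 on all 5 arrays in the highest probe set of each gene, whereas the epithelial EPCAM was at the floor and CDH1 at or next to it. Of 10 blood cell markers, 2 to 4 were above the floor, their summed level ranged from 23.5 to 23.8, and PTPRC, CD3E, CD2 and LCK were at the floor on all 5 arrays. Of 7 fibroblast markers, 2 to 4 were above the floor, with a summed level of 30.4 to 30.6 in the first set and 31.7 to 32.3 in the second, and the defining DCN, LUM and COL3A1 were at the floor. Of the collagen genes of that list, COL1A2 was well above it, at 11.97 to 13.08 (202403_s_at). COL1A1 read 7.18 to 8.11 in 217430_x_at, whose suffix marks probes that can also read other transcripts. Its other probe sets, 1556499_s_at, 202310_s_at, 202311_s_at and 202312_s_at, were at or next to the floor on all 5 arrays. Probe sets of ITGA2 and ITGA9 were at the floor on every array other than that of MP2-α2Δ cells, where the ITGA2 probe sets 205032_at and 227314_at read 3.28 and 7.28. These probe sets read the 3′ end of the native transcript. The paper states that its construct lacks the 3′ untranslated sequence probed, so they do not check the transfections. It also states that the arrays found no α2 in any population, from which the 2 values in MP2-α2Δ cells differ. The source of this signal was not tested.

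HRAS, RALA and RALB, the GTPases themselves, were well above the floor on all 5 arrays, and neither α2 array differed from MP2-mock by as much as 1.5-fold in any of their 5 probe sets. The HRAS probe set 212983_at read 11.11 in MP2-mock cells, 10.99 in MP2-α2/TC cells and 10.97 in MP2-α2/CI cells. It read 11.02 in MP2-α2Δ cells and 10.09 in MP2-α9α2 cells. HRAS was thus alike on the first 3 arrays, and the MP2-α9α2 array was the low one of its pair by 0.94, or 1.91-fold, just short of 2-fold. It stood above 92.6% of all probe sets in MP2-α2Δ and above 88.2% in MP2-α9α2 cells, against at least 94.6% on the first 3 arrays.

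RALA and RALB are close relatives that share most effectors. The RALA probe set 224880_at read 11.87, 11.81 and 11.77 in MP2-mock, then MP2-α2/TC, then MP2-α2/CI cells, and 12.51 in MP2-α2Δ cells and 12.93 in MP2-α9α2 cells. The lower RALA probe set 214435_x_at read 8.89, 8.89 and 8.93 in the first set, and 10.48 and 9.92 in the second. These probe sets disagreed in direction between MP2-α2Δ cells and MP2-α9α2 cells, with differences of -0.42 and 0.55, and the suffix _x_at marks probes that can also read other transcripts. RALB was read by 202100_at at 12.12, 12.02 and 11.93 in MP2-mock, then MP2-α2/TC, then MP2-α2/CI cells, and at 12.07 in MP2-α2Δ cells and 12.69 in MP2-α9α2 cells. The second RALB probe set, 202101_s_at, read 10.13, 10.00 and 10.00, then 11.09 and 11.74. Both RALB probe sets were lower in MP2-α2Δ cells than in MP2-α9α2 cells, by 1.54-fold and 1.57-fold.

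SOS1, the exchange factor that couples growth factor receptors to RAS, was present on all 5 arrays. Its highest probe set, 227426_at, read 9.13 in MP2-mock and 9.20 on both arrays of full-length α2, with 10.00 in MP2-α2Δ cells and 10.39 in MP2-α9α2 cells. The probe set 212777_at read 6.39, 5.89 and 6.21, then 6.47 and 7.08. It was below MP2-mock by 0.51 in MP2-α2/TC cells and by 0.18 in MP2-α2/CI cells, while 227426_at was 0.06 higher on both. The 3 SOS1 probe sets that exceeded the floor throughout, 212780_at among them, were each lower in MP2-α2Δ cells than in MP2-α9α2 cells, by 0.38 to 0.61. The other 2, 230337_at and 1557354_at, were at or next to the floor throughout.

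RASGRP1 was read by 1 probe set, 205590_at, and was above the floor on 1 array of the 5. It read the array minimum in MP2-mock and both full-length α2 populations, at 2.24, and in MP2-α9α2 cells, at 2.21, and read 10.41 in MP2-α2Δ cells. The gene was therefore at the floor on 4 arrays and among the well expressed genes on the fifth, where it stood above 89.9% of all probe sets. Within its set, MP2-α2Δ exceeded MP2-α9α2 by at least 8.20, or at least 294-fold, a bound because MP2-α9α2 was at the floor. Among 30975 probe sets measured in this pair it ranked 11 from the highest. These are bulk populations, so more cells with the transcript and more transcript per cell cannot be told apart. RASGRP1 is also a lymphocyte gene. Of the 10 blood cell markers given above, 2 were above the floor in MP2-α2Δ cells and 3 in MP2-α9α2 cells. Their summed level of 23.5 in both is therefore mostly made of floor values. The T cell genes CD3E, CD2 and LCK were at the floor, and CD79A (1555779_a_at) read 2.94 and CD14 (201743_at) 2.91 in both. Whether other cells contributed to the RASGRP1 signal was not tested.

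**Figure D1:**
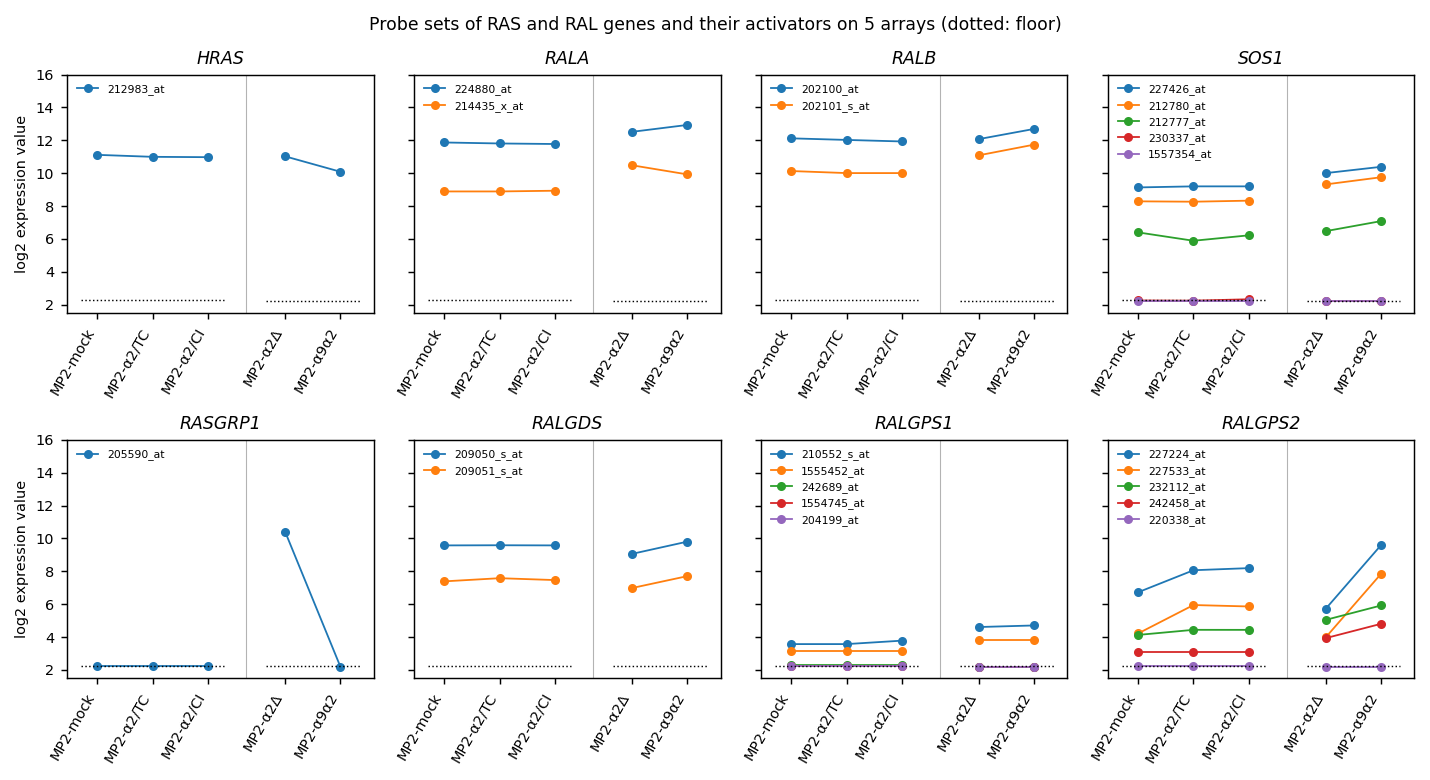
Log2 expression value (y axis) of the 23 member probe sets on the 5 arrays (x axis), 1 panel per gene and 1 colour per probe set, with the floor dotted and the separately normalized sets parted by a line. RASGRP1 leaves the floor in MP2-α2Δ cells alone, at 10.41, and the 2 highest RALGPS2 probe sets are lowest in MP2-α2Δ cells and highest in MP2-α9α2 cells.

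RALGDS, the exchange factor through which active RAS switches on RAL, differed little on the first 3 arrays. Its probe set 209050_s_at read 9.58, 9.59 and 9.58 in MP2-mock, then MP2-α2/TC, then MP2-α2/CI cells, and 9.06 in MP2-α2Δ cells and 9.80 in MP2-α9α2 cells. The second probe set, 209051_s_at, read 7.39, 7.58 and 7.47, then 6.98 and 7.71. Both were thus lower in MP2-α2Δ cells than in MP2-α9α2 cells, by 1.67-fold and 1.65-fold, and for both the MP2-α2Δ value was the lowest of the 5 although the median of all probe sets was higher in its set.

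RALGPS1 was near the floor. Its highest probe set, 210552_s_at, read 3.57, 3.57 and 3.78 in MP2-mock, then MP2-α2/TC, then MP2-α2/CI cells, and 4.61 and 4.71 in MP2-α2Δ and MP2-α9α2 cells. No RALGPS1 probe set differed by more than 0.21 in any comparison within a set, and 1554745_at and 204199_at were at the floor on all 5 arrays.

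RALGPS2, which activates RAL through a CDC25-like domain and carries a pleckstrin homology domain, was the member that differed by at least 2-fold both between the full-length α2 populations and MP2-mock and between MP2-α2Δ and MP2-α9α2, in 2 of its 5 probe sets. Its highest probe set, 227224_at, read 6.73 in MP2-mock cells, 8.07 in MP2-α2/TC cells and 8.19 in MP2-α2/CI cells. In the other set it read 5.74 in MP2-α2Δ cells and 9.60 in MP2-α9α2 cells. The α2 arrays were thus above MP2-mock by 1.34 (2.52-fold) and 1.46 (2.76-fold), and MP2-α2Δ was below MP2-α9α2 by 3.86 (14.6-fold).

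A second RALGPS2 probe set, 227533_at, read 4.22, 5.95 and 5.86 in MP2-mock, then MP2-α2/TC, then MP2-α2/CI cells. It read 3.997 in MP2-α2Δ cells and 7.85 in MP2-α9α2 cells. Its order was the same, with both α2 arrays above MP2-mock by 1.72 (3.30-fold) and 1.64 (3.11-fold) and MP2-α2Δ below MP2-α9α2 by 3.86 (14.5-fold). The low values behind these differences, in MP2-mock and MP2-α2Δ cells, lay within the 3.57 to 4.71 of the highest RALGPS1 probe set, which was near the floor. On the 5 arrays in the order MP2-mock, then MP2-α2/TC and MP2-α2/CI, then MP2-α2Δ, then MP2-α9α2, 227224_at stood above 74.2%, 81.2%, 81.9%, 65.7% and 85.7% of all probe sets. For 227533_at the shares were 63.1%, 70.6%, 70.0%, 59.9% and 75.9%. On this scale, which does not depend on the median shift between the sets although they were normalized separately, MP2-α2Δ was the lowest array and MP2-α9α2 the highest for both.

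The 2 α2 populations did not differ from each other by 2-fold in RALGPS2, with MP2-α2/CI over MP2-α2/TC at 0.13 for 227224_at and -0.09 for 227533_at. The lower RALGPS2 probe sets showed less. The probe set 232112_at read 4.13, 4.44 and 4.44, then 5.05 and 5.92. The probe set 242458_at read 3.10 on each of the first 3 arrays, then 3.94 and 4.81. Both were 0.87 lower in MP2-α2Δ cells than in MP2-α9α2 cells, and above MP2-mock on the α2 arrays by 0.31 and by 0.00. The fifth probe set, 220338_at, was at the floor on all 5 arrays. Probe sets of 1 gene share their RNA and are no replicates.

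Over all members, 2 of 17 measured probe sets were 2-fold or more above MP2-mock in MP2-α2/TC cells and 0 were lower, where 0.462% of 29885 probe sets were 2-fold apart either way. Both were RALGPS2. In MP2-α2/CI over MP2-mock cells the same 2 of 18 were higher and 0 lower, beside 0.492% of all probe sets. With 1 probe set per gene, that with the highest mean, these counts were 1 of 7 genes in both comparisons, beside 0.670% and 0.650% of all genes. Between the 2 populations with full-length α2, 0 of 18 probe sets and 0 of 7 genes were 2-fold apart, beside 0.138% of probe sets and 0.190% of genes. The members were chosen with these values known, so nothing is read from the counts.

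Between MP2-α2Δ cells and MP2-α9α2 cells 12.5% of all probe sets and 15.0% of all genes were at least 2-fold apart. Of the members, RASGRP1 was higher and the 2 RALGPS2 probe sets lower among 17 measured probe sets, or 2 of 8 genes. At 1.5-fold the members gave 2 higher and 9 lower, beside 4509 higher and 4092 lower of 30975 probe sets, or 27.8% either way. The median difference was -0.61 over the member probe sets and 0.00 over all probe sets. Values were identical on these 2 arrays in 29.7% of all measured probe sets and in 1 of the 17 of members, so the medians are not comparable. With 1 probe set per gene the median over 8 members was -0.40. The 9 lower were the 4 of RALGPS2 above the floor, both of RALB, both of RALGDS and 212777_at of SOS1. The 2 higher were RASGRP1 and HRAS. Here too the members were chosen with these values known, so nothing is read from these counts and medians.

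**Figure D2:**
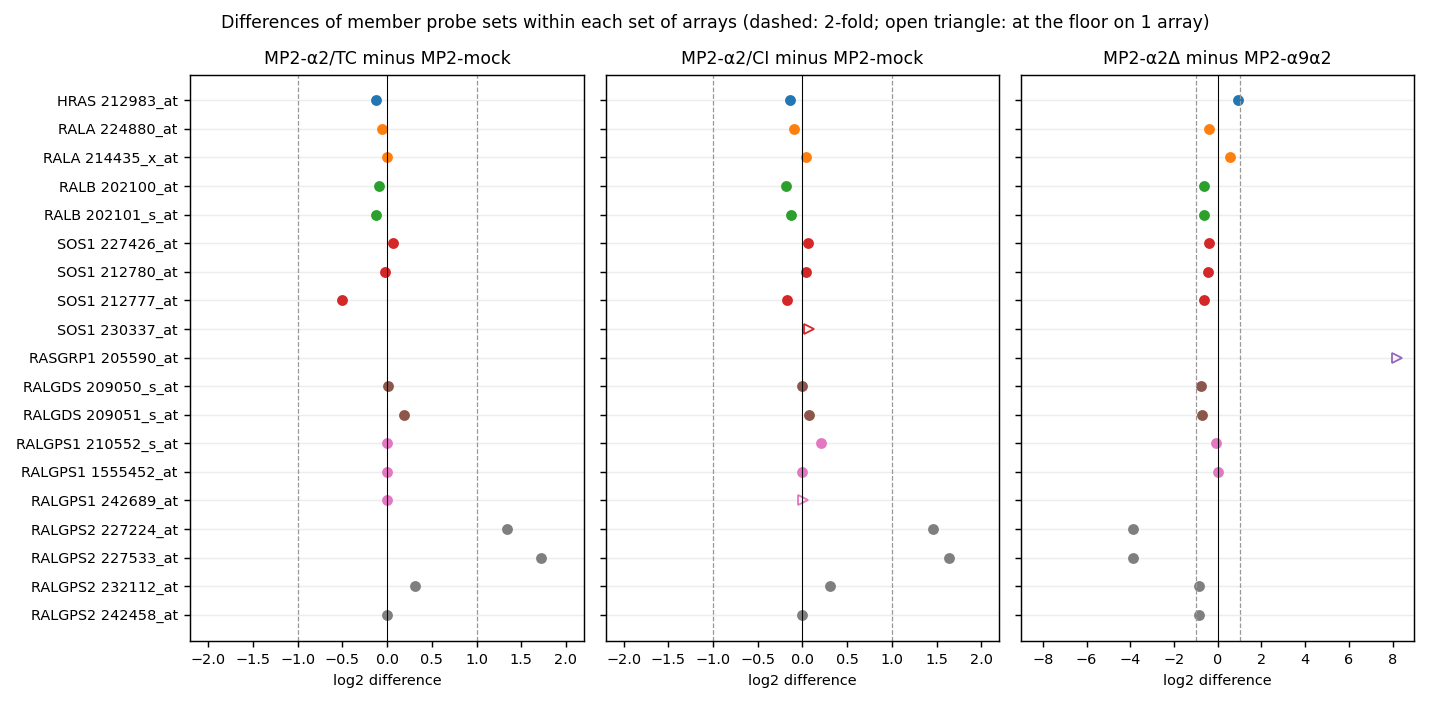
Log2 difference (x axis) of each member probe set above the floor in a comparison (y axis), in 3 comparisons within the sets of arrays, with 2-fold dashed and open triangles for probe sets at the floor on 1 of the arrays. In the first 2 panels the RALGPS2 probe sets 227224_at and 227533_at alone pass 2-fold, and in the third, on a wider axis, they lie at -3.86 and RASGRP1 at 8.20.

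The pattern of RALGPS2 was uncommon on these arrays. Of 32745 probe sets that exceeded the floor somewhere, 12 (0.0366%) were at least 2-fold higher than MP2-mock in both MP2-α2/TC and MP2-α2/CI and also at least 2-fold higher in MP2-α9α2 than in MP2-α2Δ cells. They belonged to 6 genes, of which RALGPS2 held 2 probe sets. The others were DUSP6 with 3, a phosphatase that switches off ERK, DDR2 with 3, a collagen receptor kinase, NEDD4L with 2, a ubiquitin ligase, AIM2 with 1, a DNA sensor, and CDH10 with 1, a cadherin. The pattern was singled out after the RALGPS2 values were seen. MP2-mock cells differ from the α2 populations by the whole α2 subunit, so that comparison does not part the cytoplasmic domain from the ectodomain.

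**Figure D3:**
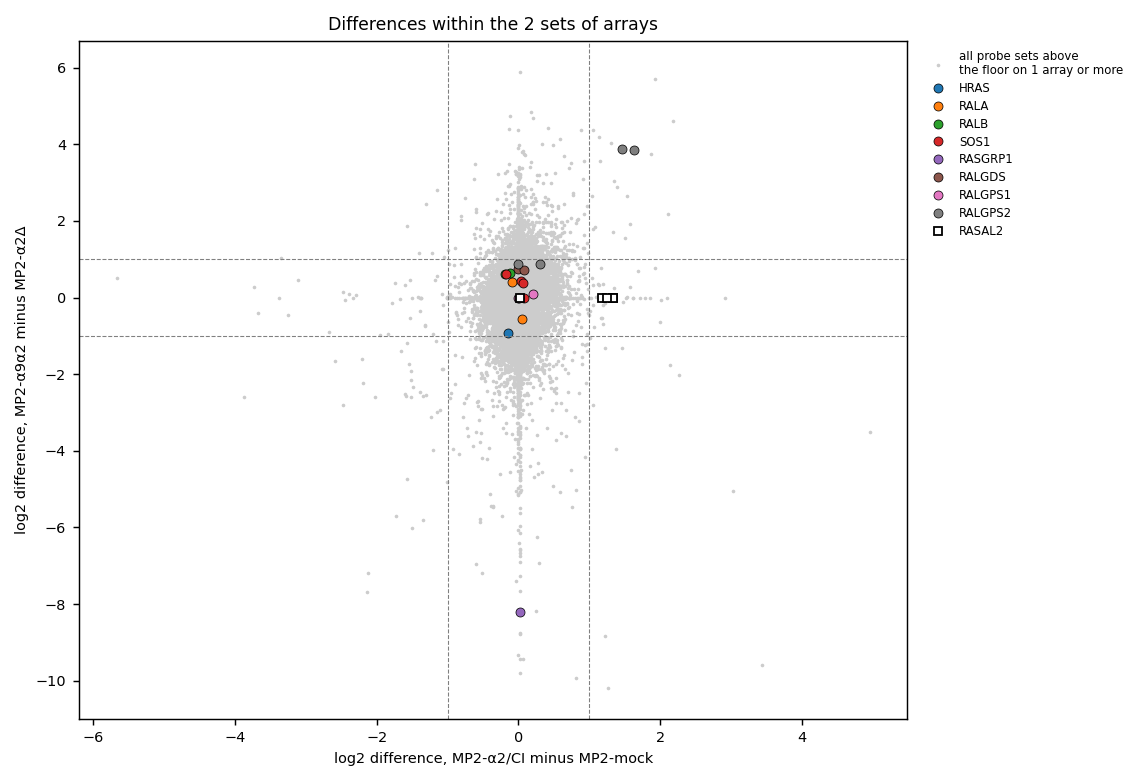
Log2 difference of MP2-α2/CI over MP2-mock (x axis) against that of MP2-α9α2 over MP2-α2Δ (y axis) for all probe sets that exceeded the floor somewhere (grey), the members (coloured) and RASAL2 (squares), with 2-fold dashed. The RALGPS2 probe sets 227224_at and 227533_at lie at 1.46 and 1.64 on the x axis and at about 3.86 on the y axis, RASGRP1 lies at the foot of the y axis, and 4 RASAL2 probe sets lie to the right at 0 on the y axis.

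By distance over the differences in 3 comparisons (MP2-α2Δ over MP2-α9α2, and each full-length α2 population over MP2-mock), the probe sets nearest to RASGRP1 were 226279_at and 202458_at of the serine protease PRSS23, at 0.06 and 0.34. Next were 204846_at and 227253_at of CP, the copper-binding plasma protein ceruloplasmin, at 0.55 and 0.58, and 206481_s_at of the LIM domain partner LDB2 at 0.92. In MP2-α9α2 cells RASGRP1, 226279_at, 204846_at and 206481_s_at were at the floor, so their differences from MP2-α2Δ cells are bounds. A short distance between bounds does not show that the differences are alike. CP and LDB2 were, like RASGRP1, at 2.24 on the first 3 arrays, and read 10.96 (204846_at) and 9.49 in MP2-α2Δ cells. PRSS23 was not, since 226279_at read 5.74 in MP2-mock cells and 10.36 in MP2-α2Δ cells. The same measure, added for 227224_at of RALGPS2 after its values were seen, placed 208893_s_at of DUSP6 nearest, at 0.44. It read 5.61, 7.03 and 7.48 in MP2-mock, then MP2-α2/TC, then MP2-α2/CI cells, then 2.63 in MP2-α2Δ cells and 6.37 in MP2-α9α2 cells. PRKACB, a catalytic subunit of protein kinase A, followed at 0.58.

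Genes that work beside the members were taken as 8 lists, with the highest probe set of each gene, and 82 of the 90 genes listed had a probe set here. In both full-length α2 populations over MP2-mock RASAL2 was the only gene of all 8 lists that was at least 2-fold apart, at 1.13 and 1.18, and the median of every list was within 0.13 of 0. RASAL2 encodes a GTPase-activating protein that switches RAS off. Its probe set 222810_s_at read 8.26 in MP2-mock cells, 9.39 in MP2-α2/TC cells and 9.44 in MP2-α2/CI cells, and 2.21 on both arrays of the other set. The probe set 227036_at read 6.59, 7.85 and 7.93, then 2.27 and 2.27. RASAL2 was thus well expressed on the first 3 arrays and at or next to the floor on the other 2, and 4 of its 8 probe sets exceeded MP2-mock by at least 2-fold on both α2 arrays.

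Between MP2-α2Δ cells and MP2-α9α2 cells 1299 of 12924 genes were 2-fold or more higher and 642 lower, and the list counts are read beside these. The median difference over all genes was 0.00. Values were identical on these 2 arrays in 29.7% of all measured probe sets, so the list medians are not comparable with that median. Of 16 other RAS family GTPases measured, RAP1A (1.10) and RIT1 (1.04) were higher and MRAS (-1.95) and RAP2A (-1.08) lower, and the median was 0.10. RIT1 was called higher from 209882_at, and another of its probe sets well above the floor, 239843_at, went the other way, at -0.78. The second probe set of RAP1A, 228548_at, differed by -0.01, and that of MRAS, 206538_at, by 0.00. Of 10 other RAS exchange factors and adaptors, RASGRP3, the relative of RASGRP1, was higher by 1.13 and the adaptor GAB1 lower by 1.11, and the median was -0.07. RASGRP3 read 3.34 in MP2-α2Δ cells and was at or next to the floor on the other 4 arrays. The level of GAB1 (225998_at) was also low, at 3.49 in MP2-α2Δ cells and 4.59 in MP2-α9α2 cells. The 3 other RAL exchange factors measured held none that was 2-fold apart, with a median of 0.00.

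In the lists of GTPase-activating proteins and of effectors the genes that were 2-fold apart were lower in MP2-α2Δ cells than in MP2-α9α2 cells. The lists of other RAS family GTPases, other RAS exchange factors and adaptors, and processing and scaffold proteins held genes in both directions. RASA3, a GTPase-activating protein for RAS and RAP, was 1.08 lower, the only gene past 2-fold of 3 RAS GTPase-activating proteins measured, whose median was -0.72. RAL is switched off by a complex of a catalytic RALGAPA subunit and RALGAPB, and of these 3 genes RALGAPA1 was 1.16 and RALGAPB 1.09 lower, with a median of -1.09. All 3 RALGAPB probe sets were at least 2-fold lower, the furthest by 1.71, whereas RALGAPA2 differed by 0.08. Of 10 RAL effectors and partners EXOC6, a subunit of the exocyst, was 1.20 lower and the median was -0.61.

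Of 10 RAS effectors, TIAM1 and PIK3CD were lower, at -2.52 and -1.95, and the median was -0.26. TIAM1, a RAC exchange factor that binds RAS, read 6.91 in MP2-α2Δ cells and 9.43 in MP2-α9α2 cells, and its other probe set was 2.36 lower. PIK3CD, a catalytic PI3-kinase subunit, read 6.02 and 7.97. Among 14 processing and scaffold proteins the prenyl-binding chaperone PDE6D was 1.03 higher, and the RAF scaffolds SHOC2 and KSR1 were 1.24 and 1.10 lower, with a median of 0.12. The lists were drawn up with earlier results of these arrays known, and their counts are given as a description beside those over all genes. Their medians describe the lists alone.

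**Figure D4:**
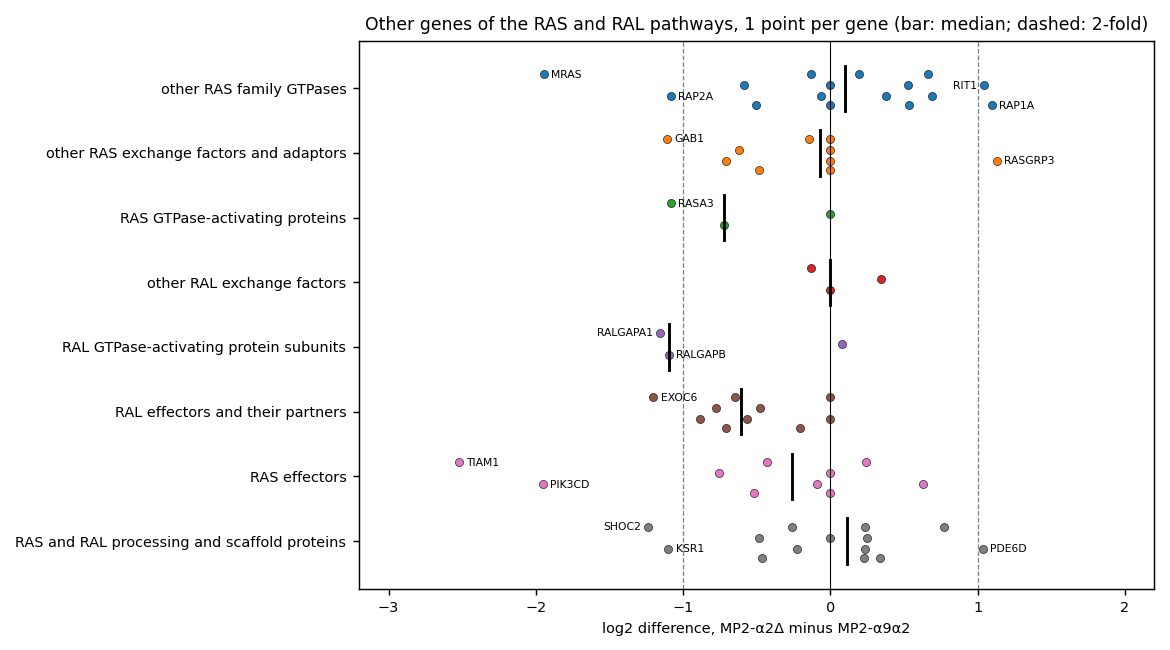
Log2 difference of MP2-α2Δ over MP2-α9α2 (x axis) for the measured genes of 8 lists (y axis), 1 point per gene, with a bar at each list's median and 2-fold dashed. The RALGAP subunits RALGAPA1 and RALGAPB and the RAS effectors TIAM1 and PIK3CD lie past 2-fold on the side of higher values in MP2-α9α2 cells, and RASGRP3, RAP1A, RIT1 and PDE6D past 2-fold on the other side.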

How the data were processed

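Human whole-genome Affymetrix arrays of 5 MIAPaCa2 populations, 1 per population, were analysed. The authors deposited 1 normalized log2 value per probe set and array. Values ran from 2.21 to 16.3, from which the log base was inferred. GCRMA and MAS5 are named in the submitters' processing notes, and versions and steps are not given in the sources used here. Arrays with a common minimum were taken as normalized together.

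Of 54675 probe sets, 62 controls were left out. Gene symbols came from the platform annotation, with 41091 probe sets assigned to 1 symbol, 1801 to several and 11721 to none, and 41043 symbols were looked up by gene identifier in a RefSeq table of GRCh38.p14. Values were raised to a floor per array, set so that 95% of 107 odorant receptor probe sets lay below it, and log2 differences of 4 pairs of arrays within the sets were computed with pandas 2.3.3 and numpy 2.4.6 in Python 3.11.15. The code was tested on simulated data.

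The members, the gene lists and the comparisons were chosen with earlier results of these data known. Named were every member probe set at least 1.5-fold apart in any pair, the highest probe set of each member, up to 4 genes of each list that were at least 2-fold apart, and the 5 probe sets most like RASGRP1. With 1 array per population no test was run. Alternatives were another floor or none, centring, quantile normalization, fewer probe sets, and 1.5-fold or 3-fold.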

Additional observations from a re-analysis of the deposited data

How the results depend on the processing

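With 1 array per population nothing could be left out, and no paired analysis was possible because each population has 1 array. At 2-fold the member counts were the same with no floor, a floor at 4, centring, quantile normalization and without _x_at and _s_at probe sets. With 1 probe set per gene, and also at 3-fold, MP2-α2/TC and MP2-α2/CI over MP2-mock each gave 1 in place of 2, and at 1.5-fold MP2-α2Δ over MP2-α9α2 gave 11 in place of 3. Of 56 member differences, 0 crossed 2-fold under no floor, a floor at 4, centring or quantile normalization, and none past 2-fold changed sign. The largest shifts were in RASGRP1, where MP2-α2Δ over MP2-α9α2 was 6.41 with a floor at 4 and 7.80 after quantile normalization. The first setting raises the low array, and the cause of the second shift was not tested. A floor from 135 probe sets, with every symbol that begins like an odorant receptor, was run first and then replaced. It gave the same member counts and 12 probe sets with the RALGPS2 pattern. The count with that pattern was also 12 with no floor and with centring, 11 with a floor at 4 and 13 after quantile normalization. Identity between member proteins was not computed. The signal over the floor limits RALGPS1, the lower probe sets of RALGPS2 and SOS1, and the RALGPS2 probe set 227533_at in MP2-mock and MP2-α2Δ cells. It also limits RASGRP1 on 4 arrays, where a change below the floor was not detectable.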

Other observations

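The gene order around RALGPS2 and RASGRP1 was looked up after the values were seen, in RefSeq (GRCh38.p14). RASAL2 lies 3 protein-coding genes before RALGPS2 on chromosome 1, and both exceeded MP2-mock by at least 2-fold on the 2 arrays of full-length α2. They parted on the other arrays, where RASAL2 read 2.21 (222810_s_at) in MP2-α2Δ and MP2-α9α2 cells. Of the other genes within 5 places that had a probe set, FAM20B, TOR3A, ABL2 and SOAT1, on the far side of RALGPS2, were above the floor and within 2-fold in the 4 comparisons, and TEX35 and SEC16B were at the floor. Near RASGRP1 on chromosome 15, the homeobox gene MEIS2, 4 places before it, read 11.16 (207480_s_at) in MP2-α2Δ cells and 4.22 in MP2-α9α2 cells. MEIS2 read 5.78 in MP2-mock cells, where RASGRP1 was at the floor. FAM98B, the gene next to RASGRP1, and SPRED1, an inhibitor of RAS signalling 2 places away, differed by 0.28 (225086_at) and -0.66 (226837_at) between MP2-α2Δ cells and MP2-α9α2 cells, and THBS1, 2 places on the other side, was at the floor on all 5 arrays. Of the other genes within 5 places, CDIN1 was higher in MP2-α2Δ cells, at 1.16 (232506_s_at) and 0.80 (224486_s_at), GPR176 was lower, at -1.05 (227846_at), EIF2AK4 was lower, at -1.55 (237145_at) and -0.80 (225164_s_at), and TMCO5A and FSIP1 were at the floor.

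The reverse of the RALGPS2 pattern, at least 2-fold lower on both arrays of full-length α2 than in MP2-mock cells, and likewise lower in MP2-α9α2 than in MP2-α2Δ cells, was found for 24 of 32745 probe sets, in 20 genes. No member was among them.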
